A study of Mus musculus with 37 samples.

Results

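The 38 transcripts described here are genes of microglia and of the macrophages at the borders of the brain, read in RNA from hippocampal astrocytes. They were chosen by name, from known markers of these cells but with earlier results of these data known. Cd209d, Lilrb4a and Alox5ap are also among the leading genes that the study named from these samples. All 38 were found among the 21975 genes of the deposited tables. Of the 38 genes 33 are microglia genes, and 5 (Mrc1, Cd163, Lyve1, Pf4 and Cd209d) are border macrophage genes, which are kept apart below. The mice were adult males that received a controlled cortical impact (CCI), a piston blow to the exposed cortex of 1 hemisphere, or sham surgery, in which the bone was opened and recording electrodes were implanted without a blow. By the study's methods the mice that gave astrocytes had the deeper of its impact settings. The injured mice were called PTE+ when electrical recordings showed post-traumatic epilepsy and PTE- when they did not. Astrocytes were taken 4 months after injury with magnetic beads against ACSA-2, an astrocyte surface antigen, from the contralateral hippocampus (5 PTE+, 10 PTE- and 5 sham mice) and the ipsilateral hippocampus (4 PTE+, 8 PTE- and 5 sham mice). The labels call every mouse wild type and name the strain CD31, while the methods name CD1. A library is 1 hippocampus of 1 mouse, and 17 mice gave both. Microglia were not the cells collected, and which cells the reads of these genes came from was not tested.

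Microglia are the resident macrophages of the brain. They depend on the receptor Csf1r for survival, on the transcription factors PU.1 (gene Spi1), Irf8 and Sall1 for their identity, and in the resting state they carry sensors such as Cx3cr1, P2ry12 and Tmem119. After injury they take up debris through receptors such as Trem2 with its adaptor Tyrobp, and raise lysosomal and antigen-presenting genes. Border macrophages sit in the meninges and around vessels and are known by scavenger and lectin receptors such as Mrc1, Cd163 and Cd209d.

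Spi1 is a member, and many myeloid promoters carry words that PU.1 binds, so the promoter windows that hold the word GAGGAAGT are shown first. The RefSeq promoter windows of GRCm38.p6 span 250 bases before to 50 bases after a gene's start, and 26 members have at least 1 window. The word was searched on both strands. It was present for 3 of these 26 members (11.5%) and for 997 of the 27025 genes with a window (3.69%). It is in all 3 windows in the reverse complement, ACTTCCTC, which is in capitals. The Cd53 window lies at chr3:106790100-106790399 on the minus strand, the Ctss window at chr3:95526536-95526835 on the plus strand, and the Pf4 window at chr5:90772185-90772484 on the plus strand.
Cd53: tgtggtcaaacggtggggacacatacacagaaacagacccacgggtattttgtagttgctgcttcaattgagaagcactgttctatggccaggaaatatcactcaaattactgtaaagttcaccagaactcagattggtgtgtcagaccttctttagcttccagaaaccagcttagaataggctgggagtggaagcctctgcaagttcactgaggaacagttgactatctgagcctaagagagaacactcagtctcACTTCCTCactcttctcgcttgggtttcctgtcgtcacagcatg
Ctss: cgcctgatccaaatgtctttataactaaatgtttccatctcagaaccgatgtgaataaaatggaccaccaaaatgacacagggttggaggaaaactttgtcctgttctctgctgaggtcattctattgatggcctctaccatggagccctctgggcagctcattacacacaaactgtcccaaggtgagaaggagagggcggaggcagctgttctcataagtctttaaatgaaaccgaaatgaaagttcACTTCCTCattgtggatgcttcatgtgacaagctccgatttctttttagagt
Pf4: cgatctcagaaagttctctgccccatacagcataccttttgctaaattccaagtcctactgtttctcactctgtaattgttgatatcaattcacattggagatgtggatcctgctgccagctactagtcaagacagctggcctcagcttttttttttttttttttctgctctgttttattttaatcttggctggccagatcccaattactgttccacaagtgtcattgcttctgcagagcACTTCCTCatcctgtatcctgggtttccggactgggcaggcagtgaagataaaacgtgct
The word begins at base 257 of the Cd53 window, base 249 of the Ctss window and base 241 of the Pf4 window, close to the gene's start in each. The 3 genes differed in level, with a median over all libraries of 75.2 TPM (a level per transcript length, scaled to the library) for Ctss, 6.07 TPM for Cd53 and 0 for Pf4.

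Libraries held 25371887 to 59846479 counts, and 9020 to 15545 genes had a count. The sum of 10 astrocyte markers was 11262 to 36079 CPM (counts scaled to the library total after TMM normalization), so the label astrocytes was borne by its markers in every library. The 33 microglia genes together took between 0.00769% and 0.263% of a library's counts, with a median of 0.0611%. Their summed level was 71.0 to 2498 CPM. In bulk RNA fewer microglia and less RNA per microglial cell cannot be told apart, and this holds for every value below.

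Values of a group are given in the order of the mice (PTE+ a8_10, a8_17, a9_17, a9_18 and a9_19, of which a8_17 has no ipsilateral library here; sham a8_15, a8_16, a9_9, a9_10 and a9_11). In the contralateral hippocampus the summed microglia level was 984, 601, 1047, 528 and 645 CPM in the 5 PTE+ libraries. The 10 PTE- libraries ran from 71.0 to 1815 CPM with a median of 629, and the sham libraries stood at 619, 430, 331, 988 and 129 CPM. In the ipsilateral hippocampus the PTE+ libraries held 997, 133, 852 and 115 CPM. The PTE- libraries ran from 246 to 2498 CPM with a median of 621, and the sham libraries held 394, 673, 1286, 1573 and 169 CPM. The groups overlapped on both sides, as the plot of summed levels shows, and the spread within a group was larger than the distance between medians. Of the 33 microglia genes, a contralateral library held more than 3 counts of 6 to 32, and an ipsilateral library of 8 to 32.

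**Figure D1:**
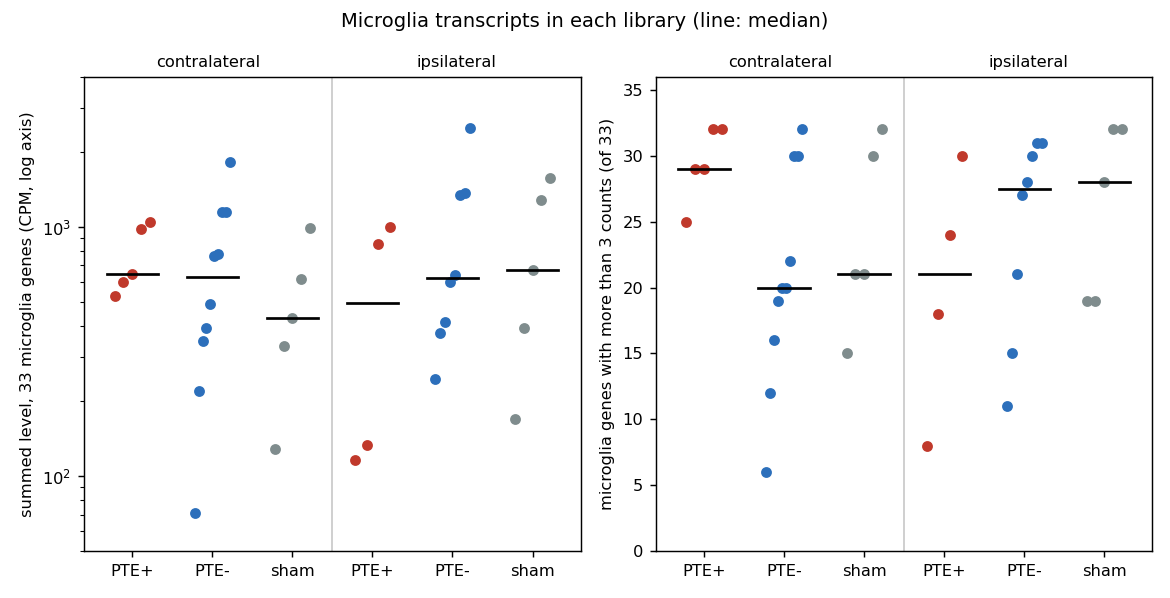
Summed level of the 33 microglia genes (left, CPM on a log axis) and number of these genes with more than 3 counts (right), by group and hemisphere, where a point is a library and a line the group median. The 5 contralateral PTE+ libraries lie between 528 and 1047 CPM, inside the range of the 10 PTE- libraries (71.0 to 1815 CPM).

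Most values of single genes were either 0 or over 100 counts. Of the 1221 values (33 microglia genes in 37 libraries), 779 (63.8%) were over 100 counts, 295 (24.2%) were 0, 49 lay at 1 to 3 counts and 98 at 4 to 100. For the 5 border macrophage genes 138 of 185 values (74.6%) were 0 and 18 were over 100 counts. Libraries at 0 for one microglia gene often held others at a high level. The contralateral PTE- library a9_20 had 0 counts of P2ry12 beside 69.9 CPM of Cx3cr1 and 122 CPM of Siglech. The contralateral sham library a8_16 had 155 CPM of P2ry12 and 0 of Tmem119. The libraries were amplified from small amounts of RNA, and the part of amplification in these gaps was not tested.

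**Figure D2:**
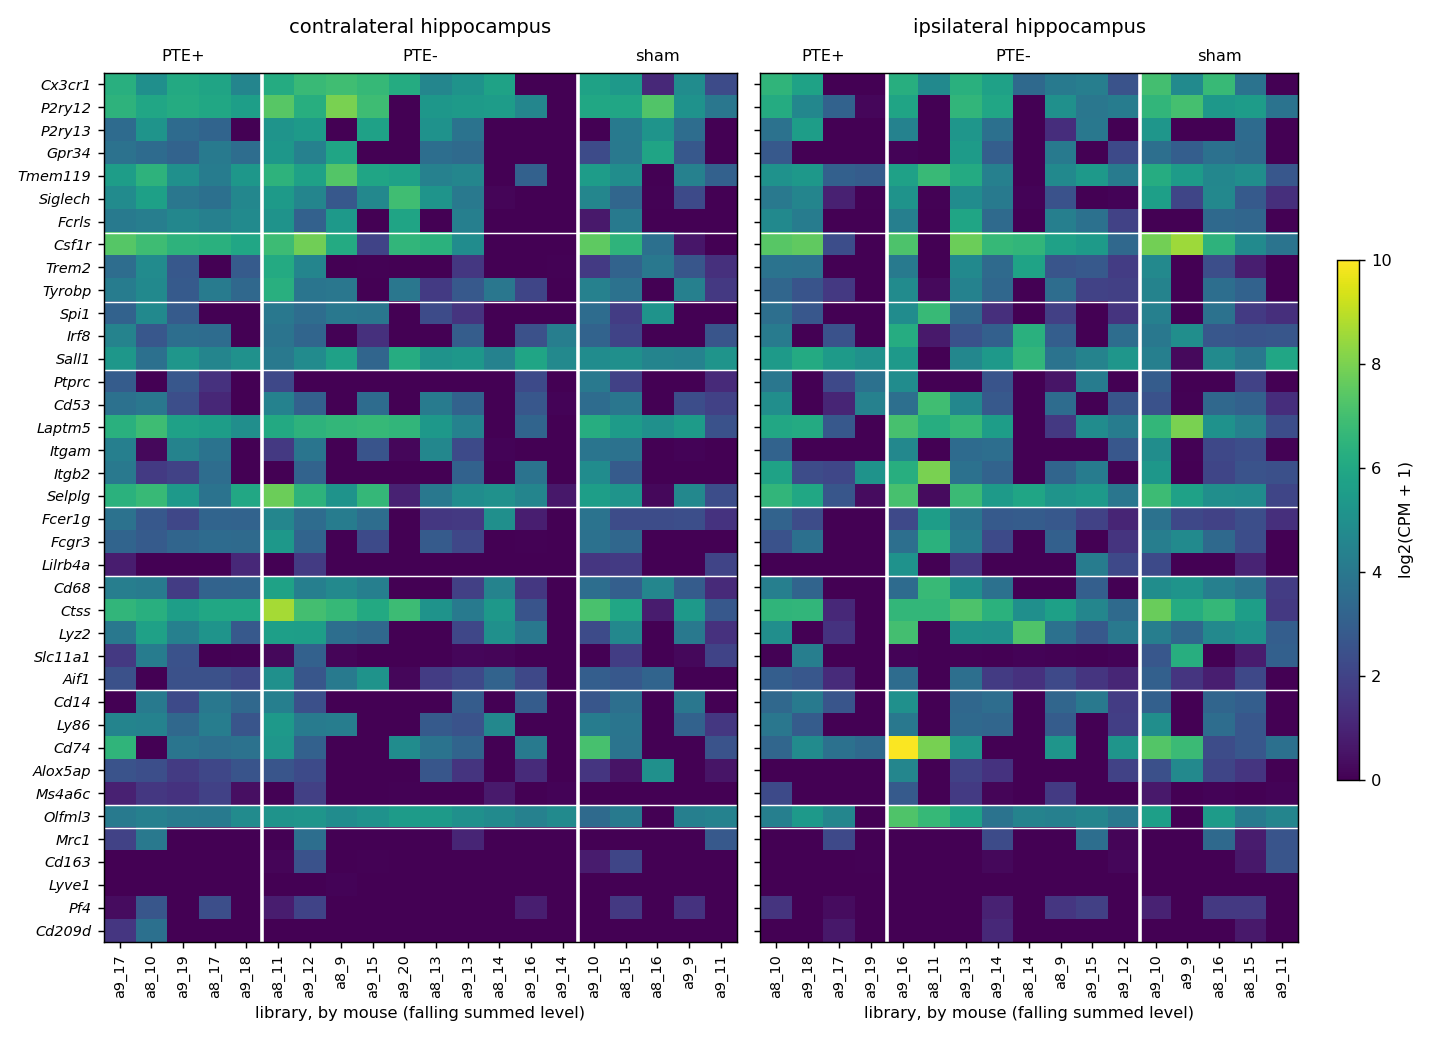
Level of the 38 genes (rows, grouped by role) in each library (columns, by mouse, in falling order of the summed microglia level within a group), as log2(CPM + 1). Bright and empty cells alternate within rows and columns, Sall1 and Olfml3 are present in 36 and 34 of the 37 libraries, and the 5 border macrophage rows at the bottom are mostly at 0.

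The 7 receptors of resting microglia differed in abundance, with medians from 5.07 TPM (P2ry13) to 51.7 TPM (P2ry12). P2ry12, the ADP receptor that guides microglial processes, had a median of 51.7 TPM over all 37 libraries. Its level in the contralateral hippocampus was 59.5, 60.4, 87.5, 48.3 and 69.8 CPM in PTE+, 0 to 255 CPM (median 43.5) in PTE- and 59.9, 155, 33.7, 61.2 and 14.7 CPM in sham. Its level in the ipsilateral hippocampus was 70.3, 7.74, 24.0 and 0.117 CPM in PTE+, 0 to 94.2 CPM (median 24.5) in PTE- and 45.1, 38.9, 133, 94.0 and 12.9 CPM in sham. The groups overlapped on both sides.

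Cx3cr1, the receptor of fractalkine, was at 30.3, 56.5, 77.3, 22.5 and 66.1 CPM in contralateral PTE+, 0 to 121 CPM (median 61.8) in PTE- and 41.7, 1.24, 28.03, 53.8 and 3.89 CPM in sham. On the ipsilateral side it was at 93.0, 0, 54.0 and 0.0194 CPM in PTE+, 4.87 to 79.4 CPM (median 22.2) in PTE- and 12.9, 105, 26.3, 127 and 0 CPM in sham. The 2 ipsilateral PTE+ libraries that were all but empty of Cx3cr1 (a9_17 and a9_19) were those with the lowest microglia sums. Tmem119, a microglial membrane protein, was at 87.4, 17.2, 46.6, 37.9 and 31.5 CPM in contralateral PTE+, 0 to 160 CPM (median 37.05) in PTE- and 28.9, 0, 19.99, 45.6 and 7.68 CPM in sham. Ipsilaterally it was at 33.6, 7.44, 38.8 and 6.46 CPM in PTE+, 0 to 107 CPM (median 33.2) in PTE- and 29.8, 23.8, 43.5, 71.5 and 5.62 CPM in sham. Both genes overlapped between all groups of a side. The other 4 receptors of this class, the purinergic receptor P2ry13, the lipid receptor Gpr34, the lectin Siglech and the Fc receptor-like Fcrls, had medians of 5.07 to 14.1 TPM and more than 3 counts in 21 to 28 of the 37 libraries. None of the 7 had an unadjusted p under 0.05 in the 6 comparisons of groups or the 3 of hemispheres without the mouse as a block, where the lowest was 0.198.

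Csf1r, the receptor of colony stimulating factor 1, was at 117, 80.9, 163, 59.6 and 88.5 CPM in contralateral PTE+. It was at 0 to 229 CPM (median 48.3) in PTE- and at 88.8, 11.8, 0.509, 183 and 0 CPM in sham. In ipsilateral libraries it was at 169, 4.10, 189 and 0 CPM in PTE+, 0.0254 to 218 CPM (median 73.8) in PTE- and 26.7, 88.2, 375, 233 and 13.4 CPM in sham. No contralateral PTE+ library was low in Csf1r, but the PTE- and sham ranges enclosed the PTE+ one. Trem2, a lipid-sensing receptor, was at 27.4, 0, 10.9, 6.41 and 5.75 CPM in contralateral PTE+, 0 to 68.8 CPM (median 0.0192) in PTE- and 8.03, 15.04, 5.38, 2.25 and 1.64 CPM in sham. In the ipsilateral hippocampus Trem2 was at 13.1, 0, 12.7 and 0 CPM in PTE+, 0 to 54.3 CPM (median 7.96) in PTE- and 0.784, 4.22, 0, 24.9 and 0 CPM in sham. It was the defining gene with the most gaps, with more than 3 counts in 24 libraries. Tyrobp, the adaptor of Trem2, was at 25.9, 17.02, 17.3, 9.30 and 6.20 CPM in contralateral PTE+, 0 to 78.1 CPM (median 9.94) in PTE- and 12.8, 0, 19.4, 19.8 and 2.20 CPM in sham. On the ipsilateral side Tyrobp was at 8.83, 2.19, 5.003 and 0 CPM in PTE+, 0 to 27.04 CPM (median 6.07) in PTE- and 7.81, 11.3, 0, 21.1 and 0 CPM in sham. For these 3 genes the fitted log2 differences between groups of a side lay between -1.22 and 1.33 with standard errors of 1.30 to 2.23.

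Among the leukocyte adhesion and signalling genes, Laptm5, a lysosomal membrane protein, and Selplg, the ligand of P-selectin, were the most abundant. Laptm5 was at 119, 46.8, 81.4, 29.5 and 52.4 CPM in contralateral PTE+, 0 to 104 CPM (median 52.7) in PTE- and 43.8, 31.9, 44.2, 74.9 and 4.77 CPM in sham. Ipsilaterally it was at 62.2, 5.82, 67.8 and 0 CPM in PTE+, 0.0214 to 134 CPM (median 37.5) in PTE- and 20.2, 33.2, 256, 97.4 and 4.16 CPM in sham. Selplg, which had more than 3 counts in all 37 libraries, was at 105, 12.9, 82.9, 62.9 and 40.7 CPM in contralateral PTE+, 0.556 to 214 CPM (median 29.9) in PTE- and 35.1, 0.170, 24.7, 47.8 and 4.13 CPM in sham. In ipsilateral libraries Selplg was at 94.0, 5.46, 61.4 and 0.253 CPM in PTE+, 0.229 to 137 CPM (median 42.1) in PTE- and 28.4, 29.8, 52.0, 116 and 3.22 CPM in sham. Neither gene separated any groups. Ptprc (CD45, the phosphatase common to leukocytes) had more than 3 counts in 17 libraries and a median of 0 TPM. Itgam (CD11b, the integrin subunit often used to sort microglia) had more than 3 counts in 20 libraries and a median of 0.05 TPM. Its partner Itgb2 had more than 3 counts in 23 libraries and a median of 2.08 TPM, and the tetraspanin Cd53 in 28 and a median of 6.07 TPM.

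Among the lysosomal genes, Ctss, the cysteine protease cathepsin S, had the highest median TPM of all members, while Csf1r had the highest median CPM on both sides. Ctss was at 77.6, 60.5, 94.4, 60.7 and 48.3 CPM in contralateral PTE+, 0 to 396 CPM (median 53.3) in PTE- and 60.0, 0.703, 41.7, 141 and 5.75 CPM in sham. In the ipsilateral hippocampus it was at 91.4, 1.25, 96.0 and 0 CPM in PTE+, 10.05 to 146 CPM (median 66.4) in PTE- and 47.6, 101, 71.4, 211 and 2.13 CPM in sham. Aif1, the calcium-binding protein stained as Iba1, was at 0, 4.53, 4.63, 3.33 and 4.61 CPM in contralateral PTE+, 0 to 34.1 CPM (median 4.45) in PTE- and 5.81, 8.42, 0, 6.86 and 0 CPM in sham. On the ipsilateral side Aif1 was at 6.99, 1.33, 5.63 and 0 CPM in PTE+, 0 to 11.5 CPM (median 2.14) in PTE- and 3.55, 0.786, 1.90, 7.37 and 0 CPM in sham. Neither gene separated any groups, and Aif1 was a low gene on the CPM scale throughout. The lysosomal glycoprotein Cd68 and the lysozyme Lyz2 had medians of 14.3 and 21.1 TPM and more than 3 counts in 29 and 30 libraries. Lyz2 has a near-identical neighbour, Lyz1, and its reads may be split between them.

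Sall1, a transcription factor of microglia, and Olfml3, a secreted protein of microglia, were present in more libraries than most other members. Sall1 was at 11.9, 22.6, 38.4, 32.6 and 36.9 CPM in contralateral PTE+, 8.56 to 72.3 CPM (median 30.6) in PTE- and 30.2, 22.1, 20.7, 28.1 and 35.5 CPM in sham. Olfml3 was at 19.4, 16.5, 16.1, 27.2 and 16.8 CPM in contralateral PTE+, 19.8 to 44.4 CPM (median 32.3) in PTE- and 16.3, 0, 18.9, 9.96 and 20.7 CPM in sham. Both were clearly present in the contralateral PTE- library a9_14, where Cx3cr1, P2ry12, Tmem119, Csf1r and Aif1 were at 0 and Trem2 had a level of 0.0383 CPM. In that library Sall1 was at 25.4 CPM, Olfml3 at 26.2 CPM and Irf8 at 18.6 CPM, and without Sall1 and Olfml3 the microglia sum was 19.4 CPM. That library held 38.3 CPM of the 6 T cell markers, the highest of the 20 contralateral libraries, and the part of other cells was not tested. Sall1 had the highest CPM of the members in some other libraries of low sum, with 31.8% of it in ipsilateral PTE+ a9_17, 35.6% in ipsilateral sham a9_11 and 27.6% in contralateral sham a9_11. In the lowest ipsilateral library, PTE+ a9_19, it was Itgb2 (29.6%). Ipsilaterally Sall1 was at 42.8, 42.4, 67.6 and 32.4 CPM in PTE+, 0 to 94.2 CPM (median 30.2) in PTE- and 15.2, 26.8, 0.181, 18.7 and 60.1 CPM in sham. Sall1 was thus higher than 30 CPM in all 4 ipsilateral PTE+ libraries, the 2 that were lowest in Cx3cr1 included. Olfml3 was there at 19.1, 22.8, 41.7 and 0 CPM in PTE+, 12.9 to 150 CPM (median 21.8) in PTE- and 16.5, 44.1, 0, 48.8 and 22.6 CPM in sham.

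The likeness of each gene to the others was described by Spearman's rho between its level and the mean log2(CPM + 1) of the other 32 microglia genes. The points are libraries, whose genes share 1 depth and 1 preparation, so rho is a description. Over the 20 contralateral libraries rho had a median of 0.55 and was over 0.5 for 19 of 33 genes. Over the 17 ipsilateral libraries it had a median of 0.65 and was over 0.5 for 24 of 33 genes. Csf1r was highest contralaterally (0.86) and Ly86, a protein of the endotoxin receptor complex, ipsilaterally (0.91). Sall1 had the lowest rho on both sides (-0.15 and -0.14). Olfml3 had -0.08 contralaterally and 0.40 ipsilaterally, where Slc11a1 (0.18), Ptprc (0.22) and Cd74 (0.23) were among the members below it. The mean of the astrocyte markers had a rho of 0.09 with the mean of the microglia genes over all 37 libraries.

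**Figure D3:**
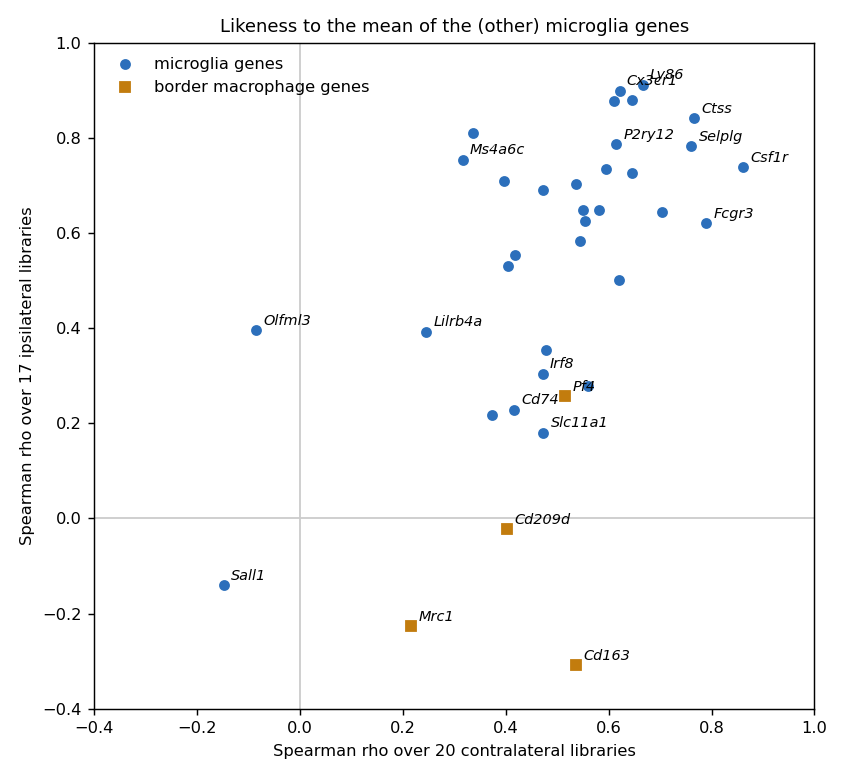
Spearman's rho between each gene and the mean of the (other) microglia genes, over 20 contralateral libraries (x axis) and 17 ipsilateral libraries (y axis), where circles are microglia genes and squares the 4 border macrophage genes with more than 3 counts in a library. Most circles lie over 0.5 on at least 1 axis, Sall1 lies at -0.15 and -0.14, and Cd163 at 0.54 and -0.31.

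Outside the members, the 5 genes most like the mean of the microglia genes among 12458 genes with a median over 1 CPM were Abi3 (rho 0.79), Pld4 (0.77), C1qb (0.76), Lpcat2 (0.74) and Abhd17a (0.74), over all 37 libraries. C1qb, a chain of complement C1q, had a median of 28.3 CPM.

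In the contralateral hippocampus no microglia or border macrophage gene passed the test between PTE+ and PTE-. Of the 35 members tested there (33 microglia genes, Mrc1 and Pf4), 0 had an unadjusted p under 0.05, against 2.21% of all 14642 genes tested. Adjusted over all genes tested by the method of Benjamini and Hochberg in edgeR's quasi-likelihood test, 0 members and 0.00683% of all genes were under 0.05. DESeq2 counted 1 member at an unadjusted p under 0.05, Cd209d, which the filter of the edgeR fit leaves out, and it was also under 0.05 after adjustment in DESeq2. Among microglia genes 20 of 33 had a positive fitted difference, with a median log2 fold change of 0.34 beside -0.05 over all genes. The median standard error was 1.66, so differences of several-fold in a single gene were not detectable. Without PTE+ a8_10 the median was -0.07. All 6 endothelial markers (2 with an unadjusted p under 0.05) and all 7 neuron markers (1) had a positive difference in the same comparison. Of the 10 astrocyte markers 9 had a negative difference (median -0.15, 0 with an unadjusted p under 0.05). The part of these markers was not tested.

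In contralateral PTE- against sham 1 member had an unadjusted p under 0.05, Ms4a6c, against 1.54% of all genes, and in PTE+ against sham again 1, Ms4a6c, against 1.23%. After adjustment 0 members and 0% of all genes passed in either comparison. The median log2 fold change of the microglia genes was 0.44 for PTE- against sham (0.07 over all genes) and 0.51 for PTE+ against sham (0.03 over all genes). Without PTE- a8_11 the first of these medians was 0.00. The 2 comparisons share the sham libraries.

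Ms4a6c, a membrane protein of myeloid cells, lies at chr19:11469366-11482192 on the plus strand. Its level in the contralateral hippocampus was 2.10, 2.83, 0.900, 0.335 and 1.77 CPM in PTE+, 0 to 2.75 CPM (median 0.0249) in PTE- and 0, 0, 0, 0 and 0.0265 CPM in sham. All 5 PTE+ libraries had more than 3 counts, as did 3 of 10 PTE- libraries and 0 of 5 sham libraries. The PTE+ and sham libraries did not overlap, and the PTE- libraries spanned both. Ms4a6c was singled out by its p in these same libraries, so this separation and the permutation p below are no independent evidence. The share of all genes that separate PTE+ from sham in this way is not given here. The log2 fold change of Ms4a6c was 7.61 ± 2.33 (SE, p = 0.00357) for PTE+ against sham and 5.46 ± 2.04 (p = 0.0137) for PTE- against sham. The fit of PTE- and sham alone left Ms4a6c out through its filter on low counts, so the latter p rests on a fit that includes PTE+. An alternative fit, limma on log2(TPM + 1), called Ms4a6c in neither comparison. The sham group held 1 count in all, so the ratio of PTE+ to sham was 317 with an exact 95% interval of 56.6 to 12580 from counting error only. On log2(CPM + 1) the difference of PTE+ from sham was 1.27, with 1.78 in the mice named a8 and 0.93 in those named a9, a prefix whose meaning is not given, with a 2-sided exact permutation p of 0.00794, the smallest that 5 against 5 can give. The difference of PTE- from sham was 0.28 (exact permutation p = 0.399, 2-sided). In ipsilateral libraries Ms4a6c was at 3.71, 0, 0.0203 and 0.0194 CPM in PTE+, 0 to 6.21 CPM (median 0.0511) in PTE- and 0.0261, 0.0655, 0, 0.621 and 0.0740 CPM in sham, so the groups overlapped there. The difference between the sides in PTE+ against sham was -0.72 (exact permutation p = 0.135, adjusted 0.216 over 8 such tests). Such tests were run only for genes with an unadjusted p under 0.05 in 1 hemisphere, which favours a change between sides. Ms4a6c has close relatives in the Ms4a6 family, and its reads may be split among them. The endothelial markers moved alongside in this comparison: 6 of 6 had a positive difference, 1 of them at an unadjusted p under 0.05, and their sum was 571 to 3552 CPM in contralateral PTE+ and 373 to 1252 CPM in sham. Their part in the result was not tested.

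In the ipsilateral hippocampus 3 members had an unadjusted p under 0.05 in PTE+ against PTE- (Slc11a1 higher, Alox5ap and Lilrb4a lower), against 1.75% of all 14903 genes tested. In PTE- against sham there was 1 (Slc11a1, lower), against 1.58%, and in PTE+ against sham 2 (Alox5ap and Lilrb4a, lower), against 1.66%. After adjustment 0 members and 0% of all genes passed in each. Of the 33 microglia genes 27 had a negative difference in PTE+ against PTE-, with a median log2 fold change of -0.83, and 23 in PTE+ against sham, with a median of -0.76. In PTE- against sham 23 were positive, with a median of 0.41. The medians over all genes were -0.01, 0.00 and 0.02 in the same order. Without PTE+ a9_17 the median of PTE+ against PTE- was -0.44, and without PTE+ a8_10 it was -1.66. The median of PTE+ against sham was 0.01 without sham a9_10 and -1.55 without PTE+ a8_10. Other markers moved alongside in PTE+ against sham: 6 of 6 oligodendrocyte markers (median -1.29, 1 with an unadjusted p under 0.05) and 9 of 10 astrocyte markers (2) had a negative difference. The oligodendrocyte sum was 618 to 1207 CPM in PTE+ and 497 to 2605 CPM in sham. In PTE- against sham the oligodendrocyte markers were also negative in 6 of 6 (0) and the astrocyte markers in 7 of 10 (2). Their part was not tested. The comparisons of PTE+ share the 4 PTE+ libraries, of which 2 had low microglia sums.

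**Figure D4:**
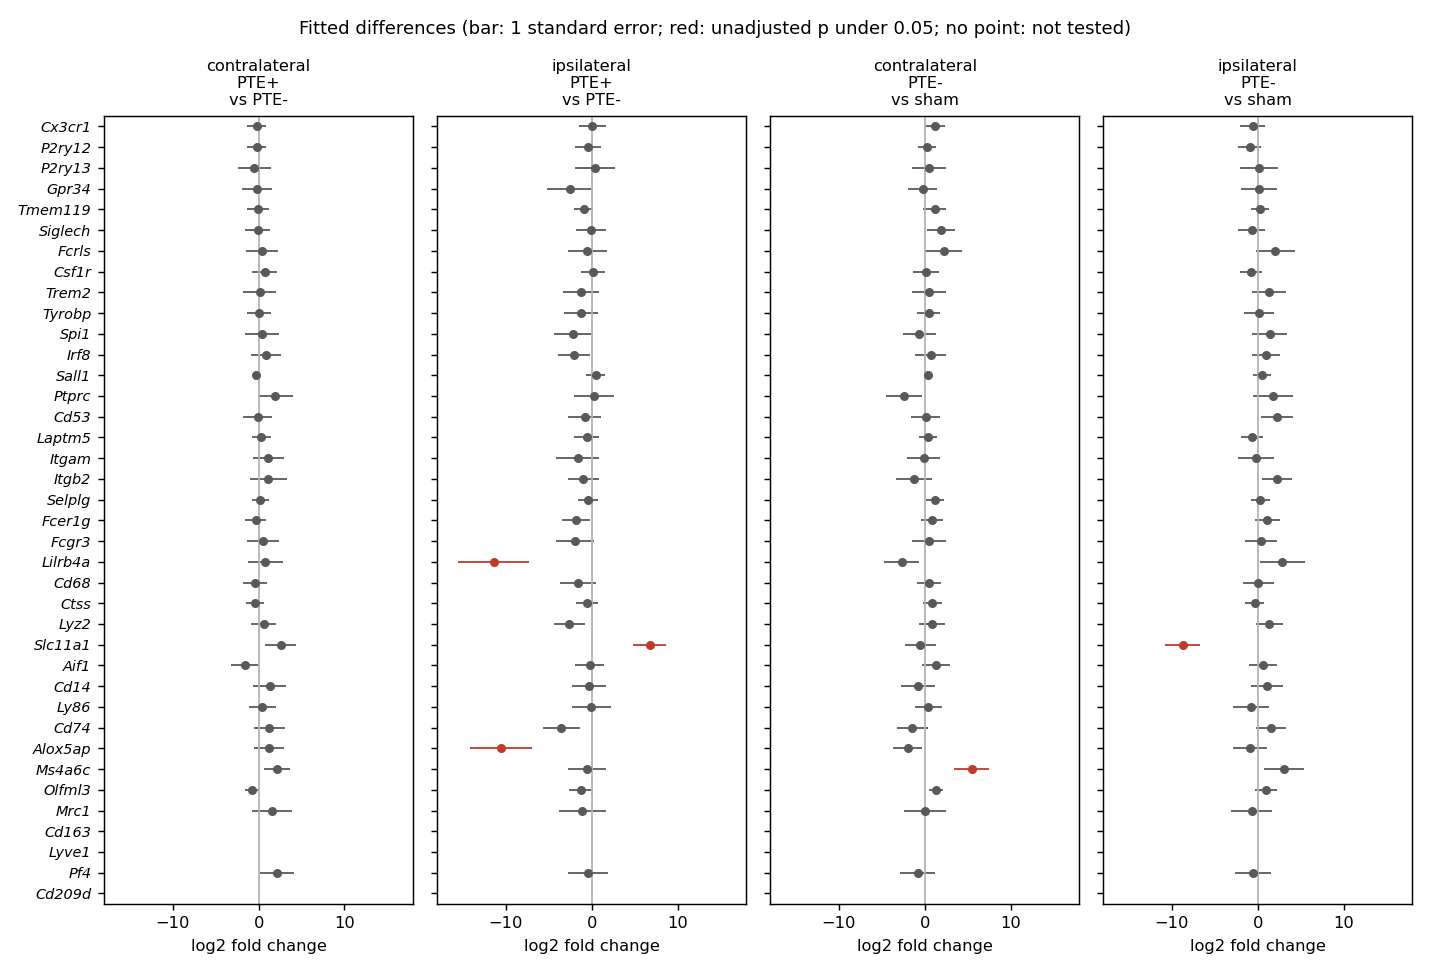
Fitted log2 fold change of each gene (rows) in 4 comparisons (panels), with bars of 1 standard error, where red marks an unadjusted p under 0.05 and a row without a point was not tested. The 33 microglia genes have a median of 0.34 in contralateral PTE+ against PTE- and of -0.83 in ipsilateral PTE+ against PTE-, and nearly all bars reach 0.

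Slc11a1, a metal ion transporter of phagosomes, lies at chr1:74375195-74386062 on the plus strand. In the ipsilateral hippocampus it was at 0.0350, 0.0175, 18.5 and 0.0194 CPM in PTE+, 0 to 0.0794 CPM (median 0.0481) in PTE- and 0.705, 0.0218, 76.1, 5.49 and 7.42 CPM in sham. Of the 5 sham libraries 4 were higher than every PTE- library, and a single PTE+ library, a9_18, was high. The log2 fold change of PTE- against sham was -8.73 ± 2.04 (SE, p = 0.000442), and the 2-sided exact permutation p was 0.00466. The difference on log2(CPM + 1) was -2.51, made up of -0.35 in the a8 mice and -3.96 in the a9 mice. The fit of these 2 groups alone left Slc11a1 out through its filter on low counts. The log2 fold change of PTE+ against PTE- was 6.78 ± 1.92 (p = 0.00236) with all libraries and -0.67 (p = 0.687) without a9_18, and the exact permutation p was 0.275. In the contralateral hippocampus Slc11a1 was at 17.3, 0.0255, 2.15, 0.0352 and 4.74 CPM in PTE+, 0 to 7.57 CPM (median 0.0584) in PTE- and 2.50, 0, 0.170, 0 and 3.02 CPM in sham, and the groups overlapped. The difference of PTE- from sham changed by -2.18 between the sides (exact permutation p = 0.0256, adjusted 0.103 over 8 tests).

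Alox5ap, the protein that presents arachidonic acid to 5-lipoxygenase in leukotriene synthesis, and Lilrb4a, an inhibitory immune receptor, are both named by the study as leading ipsilateral genes. They were picked there from these same samples, so their values are no independent evidence. Alox5ap lies at chr5:149264767-149288153 on the plus strand and Lilrb4a at chr10:51490956-51496611 on the plus strand. Alox5ap was at 0 in all 4 ipsilateral PTE+ libraries, 0 to 22.8 CPM (median 0.869) in PTE- and 1.91, 3.28, 25.4, 4.42 and 0 CPM in sham. In the contralateral hippocampus it was at 4.35, 3.34, 4.96, 5.04 and 2.33 CPM in PTE+, 0 to 5.46 CPM (median 0.667) in PTE- and 0.432, 31.4, 0, 1.90 and 0.477 CPM in sham. The same 4 mice that lacked Alox5ap ipsilaterally therefore had it contralaterally, and 4 of 8 PTE- libraries and 1 of 5 sham libraries of the ipsilateral hippocampus were also at 0.

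Against a limit of 3 counts per library, the mean of ipsilateral Alox5ap was at least 67.4-fold lower in PTE+ than in PTE-, or at least 18.97-fold without the highest PTE- library. It was at least 125-fold lower than in sham, or at least 42.8-fold without the highest sham library. These bounds on means cover counting error only, not the spread between mice or the gaps described above. The unadjusted p was 0.0108 against PTE- and 0.00862 against sham, while the exact permutation p was 0.192 and 0.0476. By the same bound the mean ipsilateral level in PTE+ was at least 74.3-fold lower than the contralateral one of the same mice. The level was lower in 4 of 4 mice (p = 0.00571, and 0.0130 with the mouse as a block). The exact p for 4 mice cannot be under 0.125, the value found. The group difference between PTE+ and PTE- changed by -2.62 between the sides (exact permutation p = 0.0242, adjusted 0.103 over 8 tests).

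Lilrb4a was at 0 in all 4 ipsilateral PTE+ libraries, 0 to 32.9 CPM (median 1.04) in PTE- and 1.02, 0, 0, 3.80 and 0 CPM in sham. In the contralateral hippocampus it was at 0, 0, 0.736, 1.25 and 0 CPM in PTE+, 0 to 2.37 CPM (median 0) in PTE- and 2.29, 0, 0, 2.02 and 3.18 CPM in sham. Most libraries of every group but contralateral sham and ipsilateral PTE- were at 0, so a group of 4 at 0 stood inside the range of the others. Against the same limit, and for counting error only, its mean was at least 125-fold lower in ipsilateral PTE+ than in PTE- (p = 0.0147, exact permutation p = 0.248). Without the highest PTE- library the bound was 59.3-fold. Against sham it was at least 17.2-fold lower (p = 0.0350, exact permutation p = 0.444), or at least 4.54-fold without the highest sham library. That call was lost in 5 of 9 fits that left out 1 library, with p up to 0.0683 without sham a9_10. Its exons overlap those of Gm49339, and it has a near-identical neighbour in Lilrb4b, so its counts are uncertain.

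**Figure D5:**
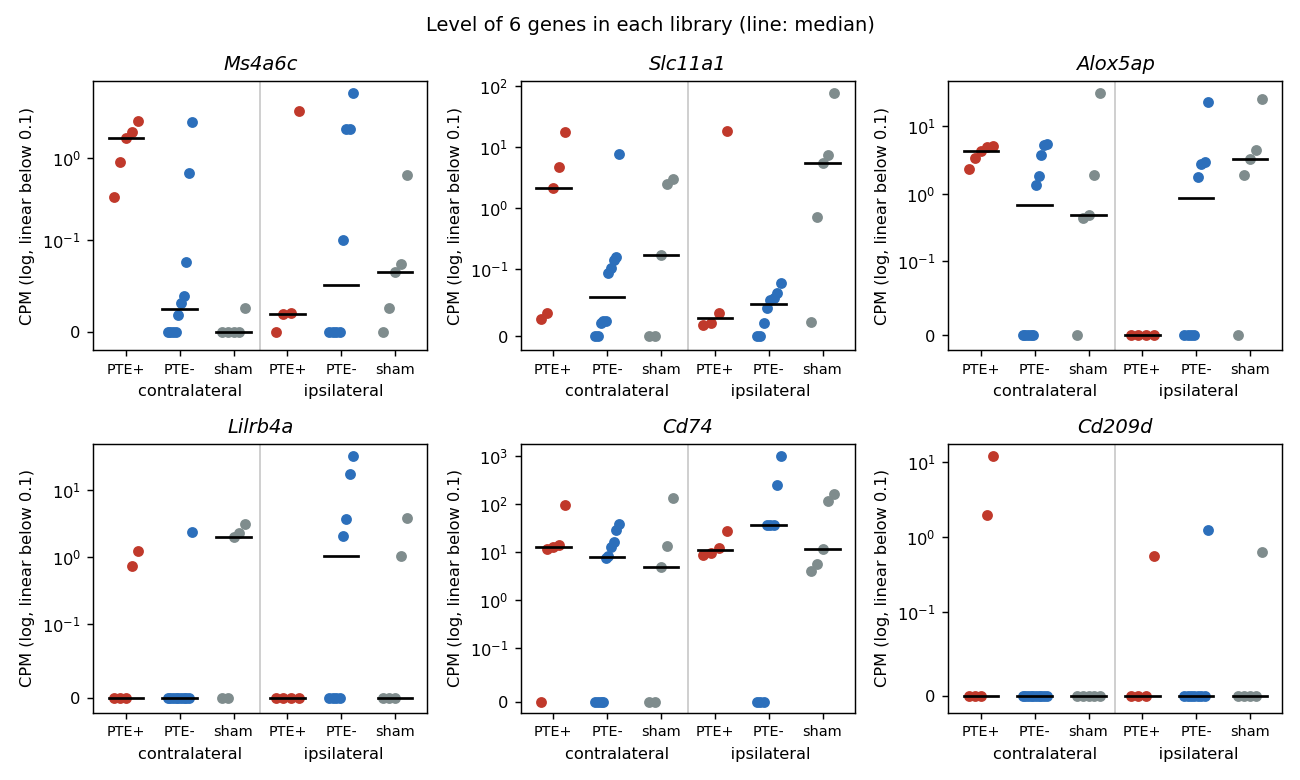
Level of 6 genes in each library, in CPM on an axis that is logarithmic above 0.1 and linear below it, by group and hemisphere, where a point is a library and a line the group median. All 4 ipsilateral PTE+ points of Alox5ap and of Lilrb4a lie at 0, and the 5 contralateral PTE+ points of Ms4a6c lie between 0.335 and 2.83 CPM.

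Between the hemispheres of the same mice, 0 of the 37 members tested had an unadjusted p under 0.05 in sham, against 2.05% of all 15731 genes. In PTE- there were 3 (Cd74 and Cd209d higher and Slc11a1 lower ipsilaterally), against 4.56%, and in PTE+ 2 (Alox5ap and Lilrb4a, lower), against 2.93%. After adjustment 0 members and 0% of all genes passed in each of these. With the mouse as a block, none of these 3 kept an unadjusted p under 0.05 in PTE- (0.0770 for Cd74, 0.361 for Slc11a1 and 0.236 for Cd209d), and Lilrb4a came under it (5.82 ± 2.54, p = 0.0481, against 0.0630 without the block). In PTE+ the block left Alox5ap and added Gpr34 (-9.91 ± 3.85, p = 0.0213), and Lilrb4a had a p of 0.0821. Of the 33 microglia genes 25 had a negative ipsilateral difference in PTE+ without the block. Their median log2 fold change was -0.97 without the block, -3.51 with it, and -0.41 without the block and mouse a9_17. The median was 0.25 in PTE- and 0.48 in sham without the block, and 0.60 and 0.37 with it. The medians over all genes without the block were -0.02, -0.03 and 0.00. In PTE+ the endothelial markers had a negative difference in 6 of 6 (median -1.18, 0 with an unadjusted p under 0.05), with sums of 32.5 to 1453 CPM ipsilaterally and 571 to 3552 CPM contralaterally. Their part was not tested.

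Cd74, the invariant chain of class II antigen presentation, lies at chr18:60803848-60812652 on the plus strand. Its contralateral level was 0, 11.7, 92.6, 12.6 and 13.7 CPM in PTE+, 0 to 37.5 CPM (median 7.96) in PTE- and 13.3, 0, 0, 133 and 4.90 CPM in sham. Its ipsilateral level was 8.78, 12.3, 26.97 and 9.67 CPM in PTE+, 0 to 978 CPM (median 36.02) in PTE- and 5.51, 4.06, 112, 161 and 11.8 CPM in sham. The highest level of any member in the series was the 978 CPM of ipsilateral PTE- a9_16, where Cd74 took 39.1% of the microglia sum. That library also held the highest sums of T cell markers (73.9 CPM of 6 genes) and of monocyte and neutrophil markers (55.8 CPM of 7 genes), and their part in the Cd74 level was not tested. In the 8 PTE- mice Cd74 was higher ipsilaterally in 5 mice and lower in 0, by 2.23 on log2(CPM + 1) (exact permutation p = 0.0625). Its fitted log2 difference was 4.27 ± 1.91 (p = 0.0324), and 2.79 (p = 0.165) without mouse a9_16.

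Ipsilateral PTE- a8_11 was another library with a mixture of its own. It had the fewest genes with a count (9020), and held Itgb2 at 250 CPM, Cd74 at 248, Cd53 at 122, Tmem119 at 107, Cd68 at 105 and Spi1 at 104 CPM. P2ry12, Aif1 and Trem2 were at 0 there and Csf1r at 0.0254 CPM. Ipsilateral PTE- a8_14 held Lyz2 at 150 CPM, Irf8 at 79.9 and Trem2 at 54.3 CPM, with P2ry12, Tmem119 and Tyrobp at 0.

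The border macrophage genes were low throughout. Their sum was 32.7, 4.36, 5.13, 0.0176 and 0 CPM in contralateral PTE+, 0 to 18.9 CPM (median 0.0511) in PTE- and 5.40, 0, 1.77, 0.711 and 5.96 CPM in sham. On the ipsilateral side it was 1.84, 4.39, 0 and 0.0389 CPM in PTE+, 0 to 13.9 CPM (median 0.119) in PTE- and 4.08, 11.9, 0, 0.961 and 10.3 CPM in sham. The groups overlapped on both sides. Mrc1, the mannose receptor, was at 15.3, 0, 2.89, 0 and 0 CPM in contralateral PTE+, 0 to 11.2 CPM (median 0) in PTE- and 5.96 CPM in 1 sham library and 0 in the other 4. Ipsilaterally Mrc1 was at 3.56 CPM in 1 PTE+ library and 0 in 3, 0 to 11.2 CPM (median 0) in PTE- and 0.705, 9.72, 0, 0 and 4.995 CPM in sham. Mrc1 and Pf4 were tested in both hemispheres and had fitted log2 differences between groups of -1.79 to 2.14 with standard errors of 2.00 to 2.97.

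Pf4, a chemokine of platelets and border macrophages, was at 5.40, 4.36, 0.273, 0 and 0 CPM in contralateral PTE+, 0 to 2.99 CPM (median 0) in PTE- and 2.13, 0, 1.77, 0 and 0 CPM in sham. In ipsilateral libraries Pf4 was at 1.84, 0.263, 0 and 0 CPM in PTE+, 0 to 2.68 CPM (median 0) in PTE- and 2.14, 2.16, 0, 0.961 and 0 CPM in sham. Cd163, the haemoglobin scavenger receptor, was at or under 3 counts in all contralateral and ipsilateral PTE+ libraries. It reached 4.67 CPM in contralateral PTE- (median 0), 3.27 CPM in contralateral sham, 0.164 CPM in ipsilateral PTE- and 5.27 CPM in ipsilateral sham, each in a group whose median was 0. Lyve1, the hyaluronan receptor, had at most 3 counts in all 37 libraries. Cd163 and Cd209d passed the filter in the fit of both hemispheres alone, and Lyve1 in none.

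Cd209d, a C-type lectin of the DC-SIGN family, lies at chr8:3871824-3878555 on the minus strand. It is also named by the study, for the contralateral hippocampus, and so was picked from these samples. It was at 11.999, 0, 1.96, 0 and 0 CPM in contralateral PTE+ and at 0 in all 15 other contralateral libraries. In the ipsilateral hippocampus 1 library of each group had it, at 0.561 CPM in PTE+, 1.25 CPM in PTE- and 0.627 CPM in sham. The contralateral difference of PTE+ from PTE- was 1.05 on log2(CPM + 1), with an exact permutation p of 0.0952. Against the limit of 3 counts per library, and for counting error only, the mean was at least 36.6-fold higher, or at least 6.44-fold without the library a8_10. That library also held the highest sum of endothelial markers (3552 CPM) and the highest contralateral sum of monocyte and neutrophil markers (38.2 CPM), and their part was not tested. The ipsilateral difference within PTE- (5.86, p = 0.0166) rested on mouse a9_14 alone, without which both sides were at 0. Cd209d has several close relatives in its gene cluster, and its reads may be split among them.

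Of 33 other microglia genes, 31 were tested in each hemisphere. Of these 0 had an unadjusted p under 0.05 in contralateral PTE+ against PTE- (2.21% of all genes). In contralateral PTE- against sham 1 did (1.54%) and in PTE+ against sham 1 (1.23%), each higher than in sham. On the ipsilateral side 3 did in PTE+ against PTE- (1.75% of all genes), 0 in PTE- against sham (1.58%) and 5 in PTE+ against sham (1.66%). All 8 ipsilateral calls were lower in PTE+. They were led by Vav1, an exchange factor of leukocyte signalling, which was at 0 in the 4 PTE+ libraries and had more than 3 counts in 3 of 8 PTE- and 4 of 5 sham libraries. After adjustment 0 of them passed. The genes of disease-associated microglia had 1 call, the lysosomal protease Ctsb, in contralateral PTE+ against PTE- (log2 fold change -0.28 ± 0.11, p = 0.0200), and 0 in the other group comparisons, among 11 of 14 tested. In that comparison 2.21% of all genes were called. Ctsb had a mean of 909 CPM in PTE+ and 1105 CPM in PTE-. The sum of the 33 microglia genes had a median of 610 CPM over the contralateral libraries. Which cells the Ctsb reads came from was not tested.

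Among 6 ligands of microglia receptors, Apoe, a lipid carrier that astrocytes make and Trem2 binds, was lower in contralateral PTE+ than in PTE- (-0.42 ± 0.18, p = 0.0348) and in ipsilateral PTE+ than in sham (-0.56 ± 0.19, p = 0.00885). It was the only ligand called in these comparisons, where 2.21% and 1.66% of all genes were called. Apoe had a mean of 30299 CPM in contralateral PTE+ and 40303 CPM in PTE-, and of 27186 CPM in ipsilateral PTE+ and 40165 CPM in sham. Its adjusted p in edgeR's quasi-likelihood test with the Benjamini-Hochberg adjustment was 1 in both when rounded. The sum of the 10 astrocyte markers was 20252 to 24794 CPM in contralateral PTE+ and 21041 to 34914 CPM in contralateral PTE-. It was 19745 to 27184 CPM in ipsilateral PTE+ and 19682 to 36079 CPM in ipsilateral sham. The part of the astrocyte sum in either Apoe difference was not tested. Of 8 other border macrophage genes, 1 had an unadjusted p under 0.05 in ipsilateral PTE+ against PTE- (Cbr2, lower, against 1.75% of all genes) and 2 in ipsilateral PTE+ against sham (Cbr2 and F13a1, lower, against 1.66%), where 6 were tested. Contralaterally Clec10a was higher in PTE- and in PTE+ than in sham, with more than 3 counts in 4 of 10, 2 of 5 and 0 of 5 libraries. Its unadjusted p in edgeR's quasi-likelihood test was 0.0188 for PTE- and 0.0182 for PTE+. It was the only gene called of the 8, against 1.54% and 1.23% of all genes.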

How the data were processed

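RNA-seq of hippocampal astrocytes from 20 contralateral and 17 ipsilateral libraries was used. The authors trimmed reads with Trim Galore 0.6.4 and estimated expected counts and TPM per gene with RSEM 1.2.28 and Bowtie2 2.4.1 on mm10. The deposited expected counts are whole numbers without normalization, and the deposited TPM come from the same run. The annotation release is not given in the sources used here, and symbols and positions came from GENCODE for GRCm38, the assembly of mm10. Whether counting used strand is not given either. The exons of P2ry12, Csf1r, Itgam and Lilrb4a overlap those of another listed gene.

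Differences were fitted to the expected counts by edgeR 4.0.16 under R 4.3.3 (TMM, filterByExpr by group, quasi-likelihood F test) on the 3 groups of a hemisphere, and on the 34 libraries of the 17 mice with both sides. P-values were adjusted by Benjamini-Hochberg over all genes tested. Levels are CPM on TMM-scaled totals. Single genes were also tested by 2-sided exact permutation of groups (of signs within mice) on log2(CPM + 1). A library of 3 counts or fewer was taken as at its limit, and intervals and limits cover counting error only. The threshold of p under 0.05 is that of the study, which used DESeq2 1.36.0.

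The members and lists were chosen with earlier results of these data known. Values per library are given for members with an unadjusted p under 0.05 in any comparison, the border macrophage genes, the 5 microglia genes of highest median TPM, those the study names and 6 defining genes. Sall1 and Olfml3 were added after their values were seen, as were the members named for 1 library. Other list genes are named by smallest p, at most 3 per list and comparison. The results of 1 gene of these lists are not reported here. The alternatives were RLE factors, no filter, the name prefix (a8 or a9) as covariate, the 2 groups alone, DESeq2 1.42.0, limma 3.58.1 on log2(TPM + 1), a pseudocount of 0.1, more than 10 counts as detection, sums of TPM or without the most abundant gene, the mouse as a block and leaving out each library. The sum without Cd74 was added after seeing the data. Same-named libraries of the 2 hemispheres come from the same animal. Their deviations from group means had a median correlation of 0.086 (-0.074 to 0.238), against -0.020 between different mice of a group. Nothing states separate handling of the libraries beyond the mouse. The test was checked on simulated counts. Figures used Python 3.11.15 and matplotlib 3.10.9, and SciPy 1.17.1 gave the intervals.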

Additional observations from a re-analysis of the deposited data

Results flagged for a closer look

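A sample far from the others of its group was seen in 24 of 124 combinations of gene and group tested, where chance gives about 1 in 20. Of the flagged genes, Cd163, Cd209d and Lyve1 had more than 3 counts in 7, 5 and 0 of the 37 libraries. Aif1, Tmem119 and Selplg had them in 29, 33 and 37, and the other flagged genes in 12 to 22. All values here are levels as log2(CPM + 1), with the nearest other value of the group in brackets. The contralateral PTE- library a9_12 stood apart in 6 genes, with Ms4a6c at 1.91 (0.74), Slc11a1 at 3.10 (0.21), Lilrb4a at 1.75 (0), Mrc1 at 3.61 (1.05), Cd163 at 2.50 (0.13) and Pf4 at 2.00 (0.85). Lyve1 was at 0.0791 in contralateral PTE- a8_9 (0), a level of 3 counts or fewer. In contralateral PTE+, Aif1 was at 0 in a8_10 (2.11) and Cd163 at 0.0252 in a9_18 (0). In contralateral sham a9_11, Ms4a6c was at 0.0377 (0) and Mrc1 at 2.80 (0).

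In ipsilateral PTE+, Ms4a6c was at 2.23 in a8_10 (0.029), Slc11a1 at 4.28 in a9_18 (0.050), Cd209d at 0.643 and Mrc1 at 2.19 in a9_17 (0 for both), and Cd163 at 0.0551 in a9_19 (0). In ipsilateral PTE-, Alox5ap was at 4.57 in a9_16 (1.98) and Cd209d at 1.17 in a9_14 (0). Selplg was at 0.297 in a8_11 (3.94) and Tmem119 at 0 in a8_14 (4.15), the low ends of their group. In ipsilateral sham, Ms4a6c was at 0.697 in a9_10 (0.10), Cd209d at 0.702 in a8_15 (0), Cd163 at 2.65 in a9_11 (0.66) and Lyve1 at 0.0372 in a8_15 (0).

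A difference between hemispheres in the effect of group was seen for 2 of 8 tests before adjustment. The 8 tests were run only for genes with an unadjusted p under 0.05 between the same groups in 1 hemisphere. A change between sides was thus favoured in advance, and the adjustment over 8 tests does not correct for it. The difference of PTE+ from PTE- in Alox5ap was 1.38 contralaterally and -1.24 ipsilaterally in mice with both libraries, a change of -2.62 (exact permutation p = 0.0242, adjusted 0.103). The difference of PTE- from sham in Slc11a1 was -0.33 contralaterally and -2.51 ipsilaterally, a change of -2.18 (exact permutation p = 0.0256, adjusted 0.103). Neither passed after adjustment.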

How the results depend on the processing

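The counts of members with an unadjusted p under 0.05 depended on the settings. For contralateral PTE+ against PTE- the count was 0, and became 2 without a filter on low counts, 1 with DESeq2 and 4 with limma on log2(TPM + 1). For contralateral PTE- against sham it was 1, and 2 with the name prefix as covariate, with DESeq2 and with limma, and 0 with the 2 groups alone. The 2 limma calls were Lilrb4a and Olfml3, and Ms4a6c was not among them. For contralateral PTE+ against sham it was 1, and 3 without the filter and 2 with DESeq2. With limma it was also 1, but the call was Fcrls in place of Ms4a6c. For ipsilateral PTE+ against PTE- it was 3, and 4 with DESeq2 (Cd74 added), 2 with the 2 groups alone and 2 with limma (Fcer1g and Lyz2, neither among the 3). For ipsilateral PTE- against sham it was 1, and 2 without the filter and 0 with the 2 groups alone. For ipsilateral PTE+ against sham it was 2, and 1 with limma and with the 2 groups alone. Between hemispheres it was 0 in sham, and 3 with DESeq2 and 1 with limma. In PTE- it was 3, and 1 once mice formed a replicate block (Lilrb4a). DESeq2 added Itgb2 to those 3 in PTE-, while limma called Itgb2, Lilrb4a and Trem2 in their place. In PTE+ it was 2, and 1 with DESeq2 and 5 with limma. The 2-group filter left out Ms4a6c (PTE- against sham), Slc11a1 (ipsilateral PTE- against sham and PTE+ against PTE-) and Lilrb4a (ipsilateral PTE+ against sham). Beyond these, the block moved the median log2 fold change of the microglia genes between hemispheres in PTE+ from -0.97 to -3.51. The cause of these shifts was not tested except where the filter decides. The share of all genes called under each alternative is not given here, so the counts cannot be set against it.

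Leaving out 1 library at a time, the contralateral counts were 0 to 3 for PTE+ against PTE- and 1 to 3 for PTE- against sham, both 3 without PTE- a9_12, and 1 to 2 for PTE+ against sham. The ipsilateral counts were 2 to 6 for PTE+ against PTE- (6 without PTE+ a8_10), 1 for PTE- against sham and 1 to 4 for PTE+ against sham (4 without PTE+ a8_10). Between hemispheres they were 0 to 2 in sham, 2 to 3 in PTE- and 1 to 3 in PTE+. The log2 fold change of Slc11a1 in ipsilateral PTE+ against PTE- was -0.67 to 7.19 and turned without PTE+ a9_18. Apart from these fits, 49 of 62 log2 fold changes of single genes kept their direction and side of the threshold and 13 kept only the direction.

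In DESeq2 8 combinations of microglia gene and comparison had an adjusted p under 0.05, among them ipsilateral Alox5ap (2.00e-17) and Lilrb4a (6.97e-12) in PTE+ against PTE-, where edgeR's quasi-likelihood test with the Benjamini-Hochberg adjustment gave values that round to 1. Their DESeq2 log2 fold changes were -24.4 and -24.9, against a PTE+ group at 0. Cd209d, kept apart from that count, had 44.8 (adjusted p 8.92e-13) between hemispheres in sham. There it was at 0.702 on log2(CPM + 1) in ipsilateral a8_15 and at 0 in all other sham libraries. The share of all genes passing in DESeq2 is not given here. Depth (3 counts are 0.0524 to 0.116 CPM) limits the lowest genes. With 1 library per mouse and side, the spread between mice and the spread between preparations cannot be told apart.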
